A study of Mus musculus with 6 samples.

Results

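The genes described are the Id inhibitors of helix-loop-helix transcription factors and their partners: Id1, Id2, Id3, Id4, the E-protein genes Tcf3, Tcf4 and Tcf12, and the class II bHLH genes Atoh8, Twist1 and Twist2. Members were the probesets whose only gene symbol in the platform annotation was one of these names, which gave 10 genes with 1 probeset each, among 15145 genes tested. All 10 lay above the detection level, the 25th percentile of an array's values, on all 6 arrays. RNA of mouse embryonic fibroblasts in culture was measured on Affymetrix arrays that give 1 value per probeset, 3 arrays from cells with the hairpin construct shARF and 3 from cells with the construct shSCR. A short hairpin RNA lowers the messenger RNA it matches, and ARF is a tumour suppressor protein encoded by the Cdkn2a locus. Both groups share what the series title calls dp53R cells and the word Ras in the sample titles, and neither term is explained in the sources used here. The labels give 1 construct per group and call the replicates biological, without saying whether they were separate cultures. A p-value here thus reflects only how far these arrays spread, which may be technical, and what belongs to 1 hairpin construct cannot be told apart from lower ARF.

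Basic helix-loop-helix (bHLH) factors bind DNA as dimers at a short sequence called the E-box. The E-proteins are expressed in most tissues and pair with class II factors such as Twist, which are restricted to certain tissues. Id proteins have the helix-loop-helix that forms dimers but lack the basic region that touches DNA, so a dimer of an Id with an E-protein cannot bind the E-box. In fibroblasts Id1 is known for holding back the p16Ink4a transcript of Cdkn2a, which E-proteins can activate, and Id genes are direct targets of BMP signalling through SMAD proteins. Twist1 and Twist2 are factors of mesenchymal cells.

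The 6 arrays had median signals of 41.97 to 42.86 in shARF and 42.3 to 42.5 in shSCR. The hairpin's target gene Cdkn2a fell by 0.90 ± 0.086 on the log2 scale (SE; limma, adjusted p = 0.00459). Its probeset may read the ARF and p16Ink4a transcripts alike. All 12 listed fibroblast markers lay above the detection level on all 6 arrays. Their summed signal was 21715 to 21974 in shARF and 19385 to 21085 in shSCR, without overlap, with Lum and Postn called higher and 0 called lower. Of 7 macrophage markers, 5 lay above the detection level on 0 arrays, among them Csf1r and Ptprc, and of 7 endothelial markers, 2, Tek and Emcn. Above it on all 6 arrays lay 2 macrophage markers, Cd68 and Cd14, and 4 endothelial markers, Cdh5, Kdr, Tie1 and Vwf. The same held for 4 of 6 epithelial, 3 of 5 neural and 4 of 6 skeletal muscle markers. The summed signal of the endothelial markers was 117 to 125 in shARF and 119.98 to 126 in shSCR, and that of the macrophage markers 167 to 192 in shARF and 169 to 198 in shSCR. The summed epithelial markers reached 523 to 651 in shARF and 446 to 466 in shSCR, with Krt18 called higher and Cdh1 below the detection level. The summed neural markers reached 669.98 to 709.95 in shARF and 540.3 to 596 in shSCR, with Nefl called higher and Sox2 below the detection level. The summed skeletal muscle markers reached 324 to 329 in shARF and 387 to 416 in shSCR, with Acta1 called lower and Myh3 below the detection level. Some markers moved against the sum of their list without passing. In the fibroblast list log2 differences were -0.38 for Thy1, -0.25 for Fap, -0.22 for Pdgfra, -0.06 for Pdgfrb and -0.01 for Col1a2. They were -0.20 for Krt19 (epithelial) and -0.52 for Tubb3 (neural). In the muscle list they were 0.10 for Tnnt1, 0.03 for Des and 0.01 for Myod1. The sums thus do not describe every marker of a list. The part of the fibroblast, epithelial, neural and muscle lists in the results below was not tested. In RNA from whole cultures, fewer cells of a type and less RNA per cell cannot be told apart.

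Id1, Id2, Id3, Id4 and Atoh8 were lower in shARF cells, by 1.93-fold for Atoh8 to 1.50-fold for Id4, while Tcf3, Tcf4, Tcf12, Twist1 and Twist2 did not pass the test. Of the 10 members, 5 were called lower and 0 higher at an adjusted p under 0.05 in limma. Over all tested genes 2.38% were called lower and 1.62% higher. The median log2 difference, shARF minus shSCR, was -0.69 over the 4 Id genes, 0.09 over the 3 E-protein genes and -0.01 over all tested genes. The arrays of the groups did not overlap, with shARF lower, for 7 members, among 16.6% of all tested genes. These were the 5 called members, Tcf3 and Twist1.

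**Figure D1:**
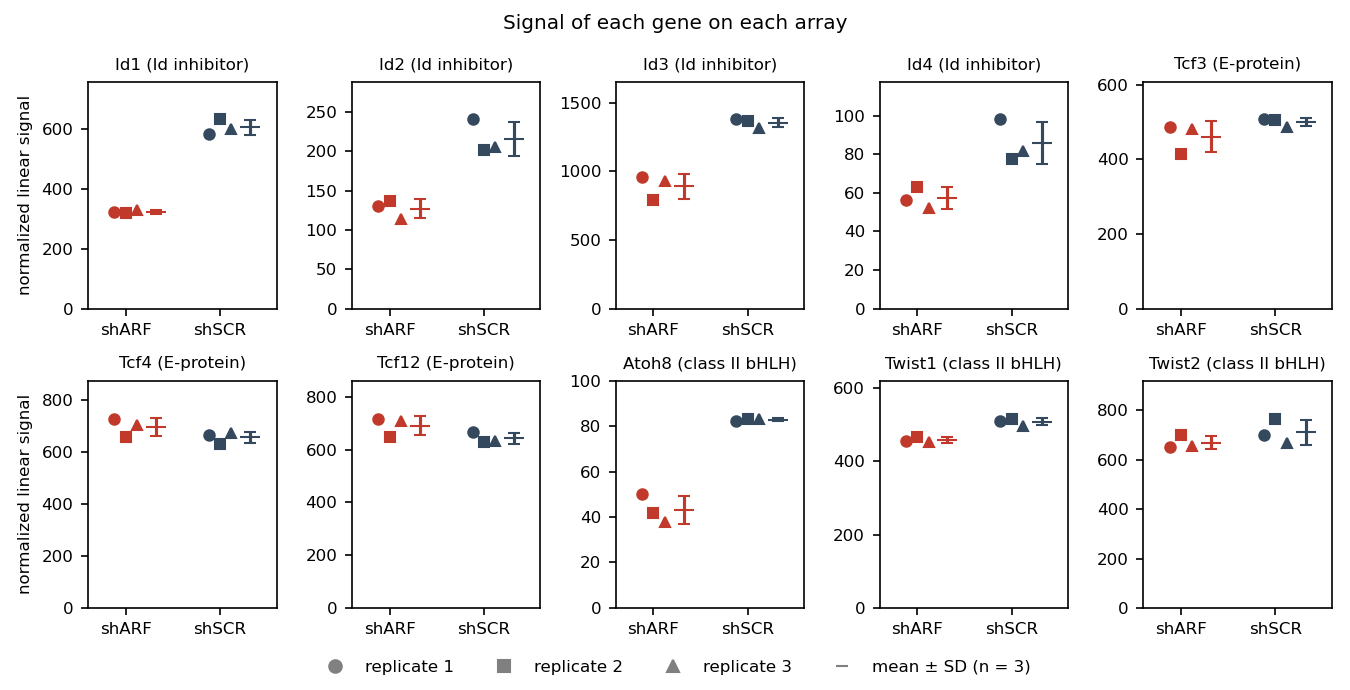
Normalized linear signal (vertical axes, from 0) of each of the 10 genes on each array, with shARF left of shSCR, 1 symbol per replicate, and the mean with its SD (n = 3) beside the points. For Id1, Id2, Id3, Id4 and Atoh8 each shARF array lies below each shSCR array by a visible gap, as in Id1 with at most 329.9 in shARF and at least 585 in shSCR.

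Upstream sequence is shown for the 4 lower members with an entry in the RefSeq promoter table (build GRCm38.p6), which moved in the same direction. For Id1, the other lower member, no entry was matched, so its upstream sequence was not read. Capitals mark the E-box, CANNTG, and GGCGCC, a GC-rich element of the kind SMAD proteins bind. Both motifs read the same on both strands, and they do not overlap each other in these sequences. Each sequence runs 5′ to 3′ on the gene's strand and ends at the base before an annotated start. For Atoh8 only the 47 bases upstream of the gene's outermost annotated start are printed, which are the far end of its 250-base window. The Id2 sequence is chr12:25096093-25096342 on the minus strand, that of Id3 chr4:136143572-136143821 on the plus strand, that of Id4 chr13:48260866-48261115 on the plus strand and that of Atoh8 chr6:72235781-72235827 on the minus strand.
Id2: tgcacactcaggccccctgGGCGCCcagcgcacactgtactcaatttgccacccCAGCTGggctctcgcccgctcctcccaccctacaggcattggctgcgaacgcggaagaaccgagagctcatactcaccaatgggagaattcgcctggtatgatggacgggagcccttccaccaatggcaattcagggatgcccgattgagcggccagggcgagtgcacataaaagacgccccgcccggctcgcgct
Id3: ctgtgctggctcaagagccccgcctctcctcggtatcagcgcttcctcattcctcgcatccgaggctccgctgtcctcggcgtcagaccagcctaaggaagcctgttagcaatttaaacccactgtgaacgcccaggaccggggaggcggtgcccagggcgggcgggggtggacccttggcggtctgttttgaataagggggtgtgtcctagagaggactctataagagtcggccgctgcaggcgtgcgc
Id4: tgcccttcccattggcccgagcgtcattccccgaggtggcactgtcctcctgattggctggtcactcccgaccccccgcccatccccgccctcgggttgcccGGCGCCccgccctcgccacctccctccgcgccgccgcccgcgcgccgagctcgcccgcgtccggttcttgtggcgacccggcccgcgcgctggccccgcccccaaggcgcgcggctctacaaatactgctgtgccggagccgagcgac
Atoh8: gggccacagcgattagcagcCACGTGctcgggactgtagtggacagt

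In the windows of 250 bases, GGCGCC stood in 2 of the 4 lower members with an entry and in 0 of the 6 windows of members that did not pass, counts too small to read further. It began 231 bases upstream of the start in Id2 and 148 bases upstream in Id4, and the windows of Id3 and Atoh8 held none. Of 32851 windows of that length in the table, 9.59% held GGCGCC. An E-box began 196 bases upstream in Id2 and at 230 and 59 bases upstream in Atoh8, and 66.2% of all windows held one. Of the members that did not pass, Tcf3 and 2 of the 3 windows of Tcf12 held 1 E-box each, and the other window of Tcf12, Twist1 and Twist2 held neither motif. A match is a description of letters and not of a bound site.

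Id1, the member best known for extending the proliferation of cultured cells, gave signals of 323, 318 and 329.9 in shARF and 585, 632 and 599.5 in shSCR, for replicates 1, 2 and 3. The lowest shSCR array was 1.77 times the highest shARF array. The means were 324 ± 6.16 in shARF and 605 ± 24.1 in shSCR (SD, n = 3 each). Id1 fell by 0.90 ± 0.059 on the log2 scale (SE; limma, adjusted p = 0.00154), a 1.87-fold drop with a 95% confidence interval of 1.70 to 2.06. Among the 15145 genes it had rank 7 by p and rank 23 by the size of the fall. No single array was needed for the call: leaving out each in turn gave adjusted p of 0.00438 to 0.015.

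Id2, which is also known to bind the retinoblastoma protein, gave 129.9, 137 and 114 in shARF and 241, 202 and 205 in shSCR. All 3 shARF arrays lay below all 3 shSCR arrays, and the largest signal was that of shSCR replicate 1. The means were 127 ± 11.9 in shARF and 216 ± 21.6 in shSCR (SD, n = 3 each), a log2 difference of -0.76 ± 0.099 (SE; limma, adjusted p = 0.0114). No single array was needed for the call: leaving out each in turn gave adjusted p of 0.026 to 0.0474.

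Id3, a member of the family best studied in lymphocytes, gave 959, 789 and 931 in shARF and 1379, 1369.7 and 1319 in shSCR. The groups did not overlap, and shARF replicate 2 lay lowest. The means were 893 ± 91.4 in shARF and 1356 ± 32.5 in shSCR (SD, n = 3 each), a log2 difference of -0.61 ± 0.085 (SE; limma, adjusted p = 0.0144). Without shSCR replicate 1 the adjusted p was 0.0602, and without shSCR replicate 3 it was 0.0596, so the call was lost in both cases and held in the other 4.

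Id4, known from the nervous system and the germ line, gave 56.2, 63.2 and 52.1 in shARF and 98.0, 77.7 and 81.7 in shSCR. The groups did not overlap, and the lowest shSCR array was 1.23 times the highest shARF array, the narrowest gap among the 5 called members. The means were 57.2 ± 5.65 in shARF and 85.8 ± 10.8 in shSCR (SD, n = 3 each), a log2 difference of -0.58 ± 0.11 (SE; limma, adjusted p = 0.0375). This call rested on all 6 arrays and was lost whenever 1 was left out (limma, adjusted p from 0.0525 to 0.108), while the difference stayed between -0.66 and -0.48. With no filter on dim probesets it was lost too (adjusted p = 0.0572). Id2 and Id4 had the same order of arrays within each group. In shARF replicate 2 was highest and replicate 3 lowest, and in shSCR replicate 1 was highest and replicate 2 lowest. Such a match was not particular to Id genes: Id3 and Tcf3 matched each other in both groups, and Twist1 had the order of Id2 and Id4 in shARF.

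Atoh8, a bHLH factor of the atonal group, had the largest log2 fall of the 10 members with all 6 arrays. Its signals were 50.0, 41.8 and 37.9 in shARF and 82.2, 83.3 and 83.0 in shSCR. The shSCR arrays were nearly equal, the shARF arrays spread 1.32-fold, and the groups were 1.64-fold apart at their nearest arrays. The means were 43.2 ± 6.18 in shARF and 82.8 ± 0.604 in shSCR (SD, n = 3 each), a log2 difference of -0.95 ± 0.10 (SE; limma, adjusted p = 0.00639), at rank 17 by the size of the fall among all tested genes. No single array was needed for the call: leaving out each in turn gave adjusted p of 0.00892 to 0.0358. On the scale log2(signal + 16) the difference was -0.74, against -0.87 for Id1, and without shARF replicate 3 it was -0.86, against -0.92 for Id1, so the order of these members depends on the setting.

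The 3 E-protein genes did not pass the test. Tcf3, which encodes the E2A proteins E12 and E47, gave 486, 414 and 482 in shARF and 507, 505 and 487 in shSCR, a log2 difference of -0.12 with a 95% confidence interval of -0.31 to 0.06 (limma, adjusted p = 0.42). The highest shARF array lay just below the lowest shSCR array, and shARF replicate 2 lay apart from the other 2. Without shARF replicate 2 the difference of Tcf3 was -0.05.

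Tcf4, which encodes E2-2, gave 729.8, 659 and 705 in shARF and 668, 632 and 673 in shSCR, a difference of 0.09 with an interval of -0.07 to 0.24 (limma, adjusted p = 0.497). Tcf12, which encodes HEB, gave 717, 649 and 706 in shARF and 668, 628 and 631 in shSCR, a difference of 0.10 with an interval of -0.05 to 0.26 (limma, adjusted p = 0.415). For both genes the groups overlapped. In all 3 E-protein genes shARF replicate 1 was the highest and replicate 2 the lowest of the shARF arrays, and Id3 had that order too. The names Tcf3 and Tcf4 have also been used for the HMG-box factors Tcf7l1 and Tcf7l2, which have probesets of their own here, with differences of -0.07 and 0.07 that did not pass (limma, adjusted p = 0.631 and 0.521).

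The Twist genes did not pass either. Twist1, which is required for cranial mesenchyme, gave 455, 467 and 453 in shARF and 509, 517 and 497 in shSCR. The groups did not overlap, but the gap was small, with the lowest shSCR array 1.06 times the highest shARF array. The difference was -0.15 with an interval of -0.28 to -0.02, at an unadjusted p of 0.0308 (limma, adjusted p = 0.194). Twist2, also called Dermo1 and known from dermal fibroblasts, gave 653, 699.7 and 654 in shARF and 700.1, 766 and 667 in shSCR, and the groups overlapped. Its difference was -0.09 with an interval of -0.26 to 0.08 (limma, adjusted p = 0.535). Of the 5 E-protein and Twist genes, 0 were called by limma or by SAM (significance analysis of microarrays), and 1, Twist1, had an unadjusted p under 0.05. By that same limma threshold, before any adjustment, the lower genes made up 13.4% of all tested genes and the higher ones 8.76%.

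**Figure D2:**
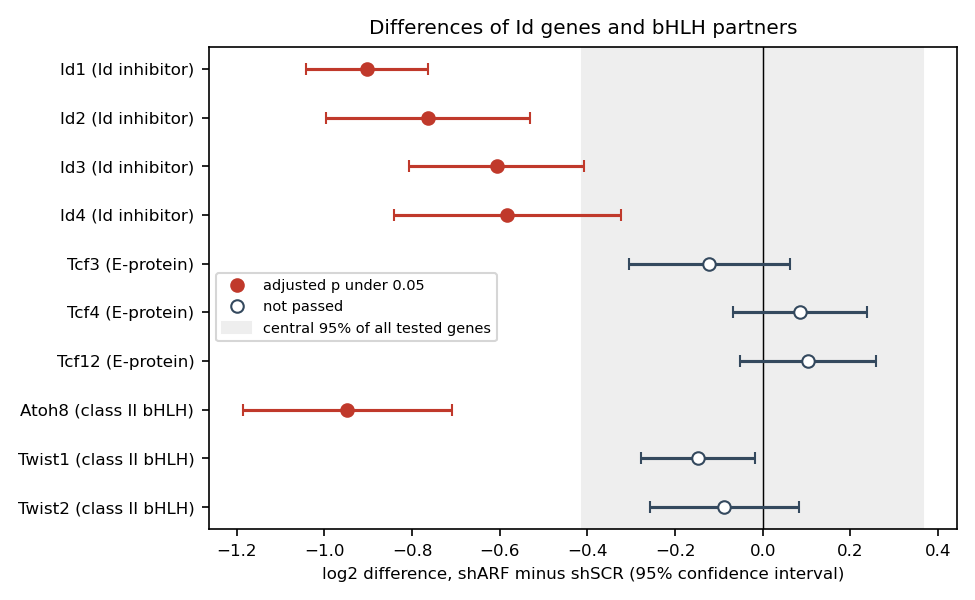
Log2 difference, shARF minus shSCR, of each gene with its 95% confidence interval from limma (horizontal axis); filled points had an adjusted p under 0.05 and the grey band holds the central 95% of all tested genes, from -0.41 to 0.37. The intervals of the 4 Id genes and Atoh8 all end at or below -0.32, and those of the E-protein and Twist genes all start at or above -0.31.

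The Id genes were set against the E-protein and Twist genes within each array, since passing in one set and not in the other does not test the difference between them. Relative to the shSCR mean, the average over the 4 Id genes was -0.68, -0.70 and -0.76 on shARF replicates 1, 2 and 3 and 0.08, -0.04 and -0.05 on shSCR replicates 1, 2 and 3, on the log2 scale. The average over the 5 E-protein and Twist genes was -0.0016, -0.08 and -0.02 on the shARF arrays and 0.02, 0.01 and -0.03 on the shSCR arrays. The Id average did not overlap between the groups. The other average joins genes with differences of both signs, and Tcf3 and Twist1 in it did not overlap between the groups on their own. It also leaves out Atoh8, a class II gene that fell. Over the 3 class II genes, Atoh8 included, the average was -0.34, -0.38 and -0.47 on shARF replicates 1, 2 and 3. On shSCR replicates 1, 2 and 3 it was -0.0094, 0.05 and -0.04.

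Each Id gene was also paired with each E-protein and Twist gene, and the log2 difference of the second was subtracted from that of the first. In 20 of 20 pairs the result was negative, from -1.01 for Id1 against Tcf12 to -0.44 for Id4 against Twist1. In all 20 the arrays of the groups did not overlap. The 4 Id genes did not overlap on their own either. How often Id genes paired with other genes are without overlap was not computed, so the count is not particular to these partners. The narrowest separation was that of Id4 against Tcf3, with a gap of 0.0066 between the nearest arrays. The 5 pairs of Atoh8 ran from -1.05 to -0.80 and did not overlap either. Atoh8 is a class II factor like the Twist factors and was placed beside the Id genes with its fall known. Its pairs thus restate that fall and add no separate result. The log2 differences were -0.58 or lower for the Id genes and -0.15 or higher for the E-protein and Twist genes. The negative sign of the 20 Id pairs follows from these values and is no separate result either. Each of the 25 pairs gave p = 0.1 in a two-sided exact permutation test over the arrays. This is the smallest p that 3 against 3 arrays allow, and groups without overlap always give it. Benjamini-Hochberg adjustment over 25 equal values cannot change it and is no further check. The pairs share genes and are not independent. A ratio within an array shows unequal change, and not that a gene stayed constant.

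The processing settings tried left these directions in place, and the plot of differences by setting shows each value. Over the 10 members and 15 alternatives, 150 recomputed differences included 0 of opposite sign. The number of members called was 4 without shARF replicate 1, 2 or 3 or shSCR replicate 2, and 3 without shSCR replicate 1 or 3.

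**Figure D3:**
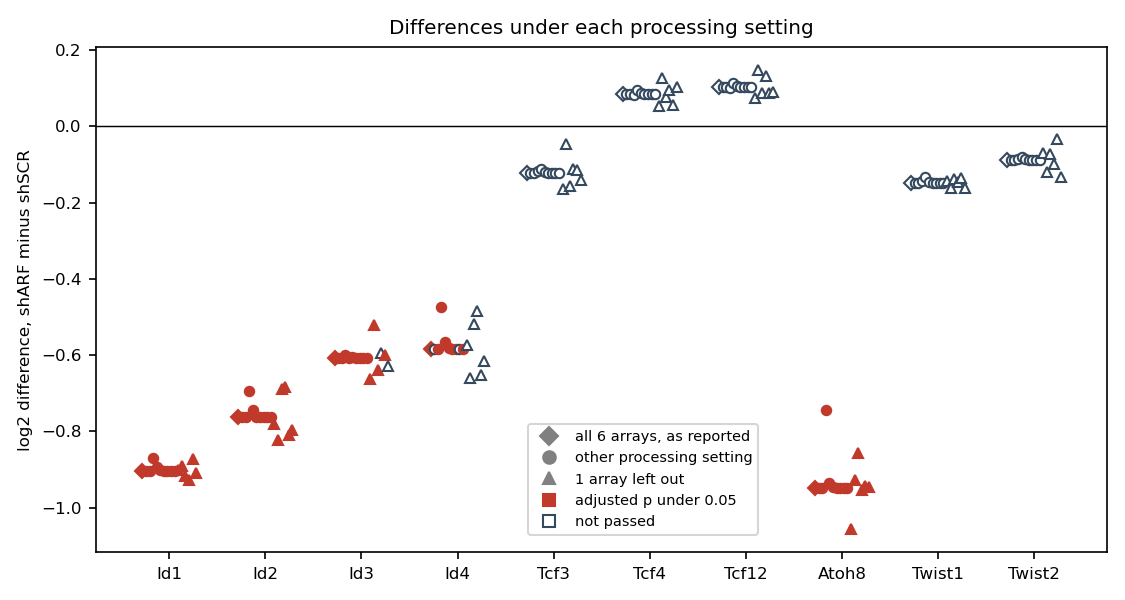
Log2 difference, shARF minus shSCR (vertical axis), of each gene with all 6 arrays as reported (diamonds), under 9 other processing settings (circles) and with 1 array left out (triangles); filled symbols had an adjusted p under 0.05. Id1, Id2 and Atoh8 are filled throughout, 2 triangles of Id3 and all 6 triangles and 2 circles of Id4 are open, and the E-protein and Twist genes are open throughout.

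The genes with the most similar profile to each called member were found by the root mean square difference of their 6 log2 values, relative to the shSCR mean, over 15135 other genes. Nearest to Id1 were Socs2, a suppressor of cytokine signalling (0.070), Armcx2 (0.0896) and Cdkn2a (0.0896). The match of Socs2 holds for its brightest probeset, with a log2 difference of -0.92, while the mean of its probesets gave -0.62. Nearest to Id2 were Slc35e3 (0.078), Zcwpw1 (0.089) and Sh2d1b1 (0.09026). Nearest to Id3 were the galactosyltransferase gene B4galt3 (0.049), Nnat (0.063) and the growth factor gene Igf2 (0.065). Nearest to Id4 were Ammecr1 (0.045), the WNT receptor gene Fzd4 (0.068) and Ndnf (0.072). Nearest to Atoh8 were Pus7l (0.085), the secreted WNT modulator gene Sfrp2 (0.095) and Flt4, a receptor of the VEGF family (0.096). The profiles were not scaled, so the measure of likeness includes the size of the fall.

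Other bHLH factors that pair with E-proteins showed 1 call. Of 38 listed, 24 were tested. Of these, 1 rose and 0 fell, both in limma and in SAM, and 23 did not pass. Over all tested genes limma called 1.62% higher and 2.38% lower. The unadjusted p was under 0.05 for 1 gene that was higher and for 0 that were lower (limma), against 8.76% and 13.4% over all tested genes. The median log2 difference of the 24 was -0.01, as over all tested genes. Apart from Scx, Atoh7 and Hand2, their group means lay below the array medians, as for Olig2 with 18.6 in shARF and 16.1 in shSCR. The detection levels of the arrays were 14.1 to 14.9. For genes this dim, no change cannot be told apart from no expression. The riser was Scx, which encodes scleraxis, a factor of tendon progenitors. Scx gave 202, 152 and 189 in shARF and 117, 122 and 108 in shSCR, a log2 difference of 0.64 ± 0.11 (SE; limma, adjusted p = 0.0285). The groups did not overlap, but the call was lost on leaving out shARF replicate 1 or 3 or any shSCR array (adjusted p over the 6 cases from 0.0166 to 0.107).

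The bHLH repressors of the HES, HEY and BHLHE40 families, many of which act below NOTCH, held no call. Of 12 listed, 10 were tested, 0 passed in limma or SAM, and the median was -0.04. The unadjusted p was under 0.05 for 1 gene, which was lower (limma), against 8.76% higher and 13.4% lower over all tested genes. Hes2, Hes3 and Bhlhe41 lay close to the detection level, where no change cannot be told apart from no expression. Hes1 averaged 297 ± 8.62 in shARF and 354 ± 30.8 in shSCR (SD, n = 3 each; limma, adjusted p = 0.135), without overlap. Hey1 averaged 28.5 ± 5.59 in shARF and 34.4 ± 4.08 in shSCR (limma, adjusted p = 0.327), with overlap.

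In BMP signalling, a pathway that drives Id transcription, genes moved both ways. The called genes were a ligand gene that was higher and a secreted inhibitor gene that was lower in shARF cells. Of 28 listed genes, 27 were tested. Of these, 1 gene rose, 1 fell, 25 did not pass and the median was -0.03. Over all tested genes 1.62% were called higher and 2.38% lower. Unadjusted p-values under 0.05 were found for 3 genes that were higher and 6 that were lower (limma), against 8.76% higher and 13.4% lower over all tested genes. Beside Bmp2, the higher were Rgma (log2 difference 0.29) and Smurf1 (0.14). Beside Fst, the lower were the ligand gene Bmp4 (-0.25), the receptor gene Bmpr1b (-0.28), Smad9 (-0.26), Smad6 (-0.14) and Bambi (-0.26). None of these passed after adjustment, and the net effect on the pathway was not tested. Bmp2, a ligand, gave 109, 71.4 and 80.6 in shARF and 41.3, 46.4 and 30.2 in shSCR, a log2 difference of 1.15 ± 0.20 (SE; limma, adjusted p = 0.0285). Its groups did not overlap, and the call was lost without replicate 1 or 3 of either group (adjusted p over the 6 cases from 0.0431 to 0.085). Fst, which encodes follistatin, an antagonist of activins and some BMPs, gave 516, 447 and 518 in shARF and 905, 844 and 943 in shSCR, a difference of -0.86 ± 0.082 (limma, adjusted p = 0.00459). Its groups lay far apart, and the call held without any 1 array.

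Other regulators of the Id genes and the proteins outside the bHLH class that Id proteins bind showed no call. Of 10 regulators of Id transcription and turnover, 0 passed in limma or SAM, and the median was -0.03. An unadjusted p under 0.05 was found for 1 that was higher and 2 that were lower (limma), against 8.76% and 13.4% over all tested genes. The receptor gene Tgfbr1 averaged 167 ± 5.24 in shARF and 193 ± 9.8 in shSCR, and the signal transducer gene Smad2 averaged 353 ± 7.08 in shARF and 399 ± 13.8 in shSCR (SD, n = 3 each; limma, adjusted p = 0.141 and 0.156). Of 10 genes of Id-bound proteins, 0 passed in limma or SAM, 0 had an unadjusted p under 0.05 in limma and the median was -0.07. Rb1, which encodes the retinoblastoma protein, averaged 60.0 ± 7.93 in shARF and 70.3 ± 2.87 in shSCR (SD, n = 3 each, limma, adjusted p = 0.246). Pax5, a B cell factor, averaged 25.7 ± 2.63 in shARF and 21.7 ± 2.95 in shSCR (SD, n = 3 each, limma, adjusted p = 0.293). Both means of Pax5 lay below the array medians, where no change cannot be told apart from no expression.

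Genes described as regulated by E-proteins, Id or Twist moved both ways. Of 18 listed, 14 were tested. Of these, 1 gene rose, 2 fell, 11 did not pass and the median was -0.03, beside 1.62% called higher and 2.38% called lower over all tested genes. Unadjusted p-values under 0.05 were found for 3 genes that were higher and 5 that were lower (limma), beside 8.76% and 13.4% over all tested genes. One of those that fell is the hairpin's own target, Cdkn2a. Cdh2, which encodes the mesenchymal cadherin N-cadherin, gave 750.5, 784 and 811 in shARF and 982, 925 and 965 in shSCR, a log2 difference of -0.29 ± 0.061 (SE; limma, adjusted p = 0.0498). Postn, the gene of the matrix protein periostin, gave 2169.96, 2320.02 and 2140.2 in shARF and 1656, 1427 and 1684 in shSCR, a difference of 0.48 ± 0.082 (limma, adjusted p = 0.0271). Neither gene's groups overlapped, and the call of each rested on all 6 arrays and was lost whenever 1 was left out (adjusted p from 0.0992 to 0.151 for Cdh2 and from 0.0573 to 0.0741 for Postn). Cdh2 also lost its call with no filter on dim probesets (adjusted p = 0.0872) and with arrays centred on their median (0.0588).

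**Figure D4:**
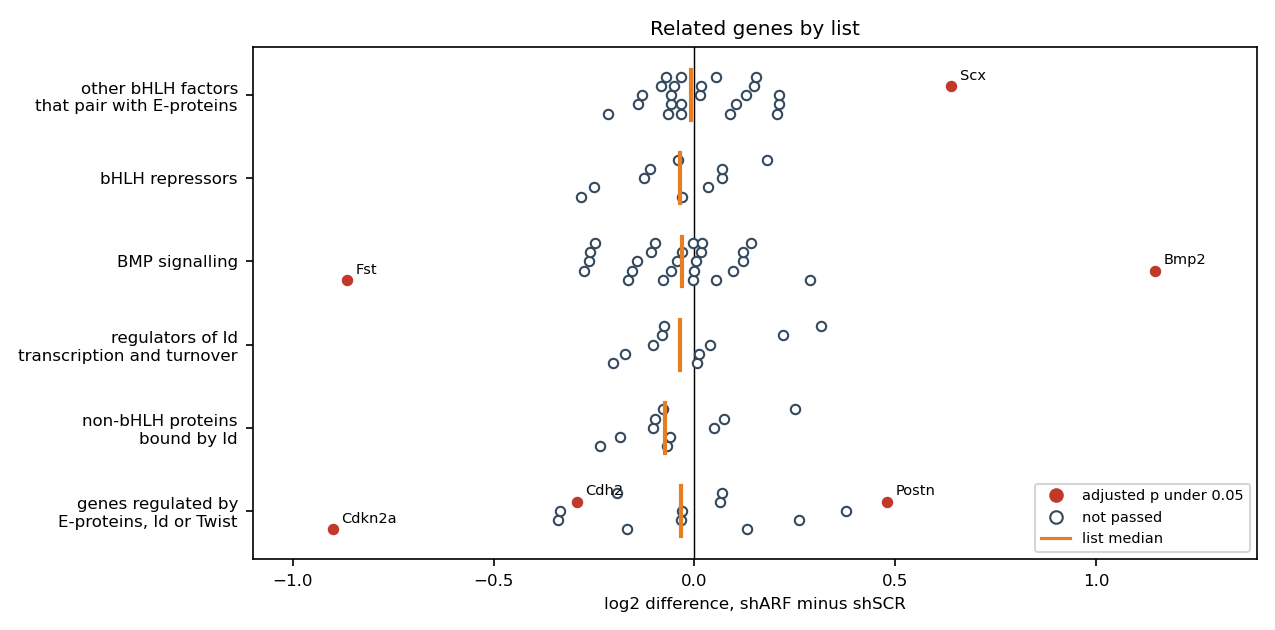
Log2 difference, shARF minus shSCR (horizontal axis), of every tested gene of 6 lists of related genes; filled and named points had an adjusted p under 0.05, orange bars are list medians, and the vertical scatter within a list has no meaning. The medians lie between -0.07 and -0.01, and the named points are Scx, Fst, Bmp2, Cdkn2a, Postn and Cdh2.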

How the data were processed

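The authors deposited linear intensity values, 1 per probeset and array, which per the series design text and the submitters' processing notes come from RMA (robust multi-array average: background correction, quantile normalization and probe summary) in Affymetrix Expression Console with core probesets. No version or genome build is given in the sources used here. RMA makes array distributions nearly equal, so it hides any shift shared by most genes, and it lessens folds of dim genes. Of 26851 probesets, 21056 carried 1 gene symbol. Values were turned to log2. The 20310 probesets above the 25th percentile of the array on at least 3 arrays were tested with limma 3.58.1 in R 4.3.3 (two-sided, Benjamini-Hochberg adjustment over all of them). Each gene stood by its brightest tested probeset. The fit was tested on simulated data.

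Named genes were all members, Cdkn2a, the called genes of each list (at most 5) or the 2 with the smallest p, and the 3 nearest profiles of each called member. Tcf7l1 and Tcf7l2 and the cell type markers with values or calls were named after their values were seen. The members and lists were chosen with earlier results of these data known. Alternatives were other filters, log scales, normalizations, variance models, SAM, a replicate block, probeset means and leaving out each array.

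RefSeq promoters (GRCm38.p6) were matched by symbol for 8 of 10 members, all but Id1 and Tcf4. The number of arrays limits the precision.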

Additional observations from a re-analysis of the deposited data

How the results depend on the processing

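Over 15 alternatives the 10 members gave 150 recomputed differences, of which 140 kept their sign and their side of the threshold and 10 kept only their sign. These 10 were losses of the calls of Id3 (2 of the arrays left out) and Id4 (each of the 6 arrays left out, no filter on dim probesets with adjusted p = 0.0572, and the replicate block with adjusted p = 0.0763). The number of members called, 5, was 3 to 4 with 1 array left out. With 1 array left out, 0 to 1 other bHLH factors were called (1 with all arrays) and 1 to 2 BMP genes (2 with all arrays). In each case 1 gene regulated by E-proteins, Id or Twist was called (3 with all arrays). That gene was always Cdkn2a, the hairpin's own target, and Postn and Cdh2 were called in 0 of the 6 cases. Testing only probesets above the array median gave 4 BMP genes, and that filter, log2(signal + 16), eBayes with trend and robust prior, SAM and probeset means each gave 5 regulated genes. The replicate block gave 4 members, 0 other bHLH factors and 1 regulated gene, again Cdkn2a. Same-numbered arrays deviated together only weakly (r = 0.078, 0.052 and 0.00062 across probesets), so the numbers were not taken to pair arrays. Over all genes 607 calls became 149 to 333 with 1 array left out, 336 with the block, 372 with no filter, 978 with log2(signal + 16), 996 above the array median, 997 in SAM and 1281 with trend and robust prior. Some of these settings used fewer arrays or tested more genes, and the cause of the shifts was not tested. The other 26 named genes gave 386 recomputed differences, of which 57 lost a call and 0 changed sign; Scx, Postn and Cdh2 lost theirs under the block (adjusted p = 0.0657, 0.0789 and 0.112). Dim genes such as Atoh8 and Id4 lie nearest the background, which limits the size of their folds.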
